A study of Nicotiana tabacum with 6 samples.

Results

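The genes described here are the cysteine and serine proteases of tobacco (Nicotiana tabacum) leaf. They are 330 of the 69500 gene models in the deposited table, chosen by the protein domain names in their descriptions. Of these, 85 name the papain family (Peptidase C1A), 171 the subtilisin family (Peptidase S8) and 74 the serine carboxypeptidase family (Peptidase S10), and no model names more than 1 family. Aspartic proteases were to enter under the names Peptidase A1 and Xylanase inhibitor, which 0 rows carry. The table writes such proteins as Aspartic peptidase, and these rows are described apart, after the families.

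Leaves of the tobacco line GDH64 were compared with leaves of MuGDH64, an aphid-resistant mutant line obtained from GDH64 by cobalt gamma irradiation, with 3 RNA sequencing libraries per line. The series title names a mutation of NtCYC, glandular trichome density and aroma. Samples were punches of middle leaves of field-grown plants, with 3 plants of a plot mixed, and no label ties a library to a sampling day, a season or a field block. MuGDH64 is 1 mutant line, so a difference from GDH64 belongs to that line.

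These families are made as precursors and cut other proteins in the vacuole, the cell wall or the space between cells. Papain-like enzymes are kept inactive by a propeptide, often of the I29 type, and are known in plants for protein turnover in ageing leaves and for defence. Subtilisin-like enzymes are mostly secreted, with an I9 propeptide that helps them fold; SDD1 of Arabidopsis limits stomatal density, and the P69 enzymes of tomato are induced by pathogens. Serine carboxypeptidases remove amino acids from the end of a protein, and relatives with the same fold transfer acyl groups to small molecules. The descriptions give domains and no gene names, so no model was tied to a named protein.

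Values are FPKM (fragment counts divided by transcript length and by the library's mapped fragments), a unit inferred from the table. A model was tested when it had at least 1 FPKM in at least 3 of the 6 libraries, which held for 136 of the 330 proteases: 34 C1A, 62 S8 and 40 S10 models. Another 90 were listed at 0 in every library and 104 were detected below the filter. Just inside the filter stood 6 models with mean levels from 0.913 to 1.18 FPKM, and just outside it 6 models with means from 0.642 to 1.10 FPKM. Only 2 tested models, Nitab4.5_0002815g0150 (C1A) and Nitab4.5_0000567g0070 (S10), passed it with every library of 1 line under 1 FPKM, and in both that line was GDH64. Across all tested models 1.43% did so. Counts over the 136 describe the models that passed, not the whole families.

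The libraries of the lines were shifted as a whole. Summed FPKM lay between 728572 and 756316 in GDH64 and between 634425 and 719776 in MuGDH64, lowest in MuGDH64 library 3. The median log2 change of the 32340 tested models was -0.176, so changes are given below relative to this median, as MuGDH64 minus GDH64 on the log2(FPKM + 1) scale, where changes of low models come out too small. Adjusted p values (limma, Benjamini-Hochberg over all tested models, threshold 0.05) belong to the changes before this subtraction. They set the difference between the lines against the spread within these 3 and 3 libraries, which may be technical. Models of chlorophyll-binding proteins and the Rubisco small subunit, typical of green leaf cells, summed to between 13930 and 15720 FPKM per library in GDH64 and between 14160 and 14840 FPKM in MuGDH64.

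Of the 136 tested proteases 5 rose and 18 fell in MuGDH64 and 113 did not pass. The called share was 16.9%, where 11.9% of all tested models were called, 2.20% as higher and 9.74% as lower. After quantile normalization, which removes the shift, the split turned to 10 higher and 8 lower, where 4.43% and 5.17% of all models were called. A set of 13 proteases, 5 higher and 8 lower, was called under both scalings. Before the median was subtracted, 3 of the called proteases differed at least 2-fold on the log2(FPKM + 1) scale. Of all tested models 1.99% were called and did. On this scale changes of low models come out too small, so on plain FPKM more of the called proteases differed 2-fold. The MuGDH64 libraries lay below all GDH64 libraries in 56 of the 136 (41.2%, against 31.8% of all tested models) and above them in 10 (7.35%, against 5.68%). After quantile normalization these numbers were 35 and 21, where the shares of all models were 16.5% and 15.4%. The 23 calls became 13 without GDH64 library 1, 10 without GDH64 library 2, and 12, 13 and 13 without MuGDH64 library 1, 2 and 3; without GDH64 library 3 they were 22. As these are bulk leaf samples, fewer cells of a type and less RNA per cell cannot be told apart.

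**Figure D1:**
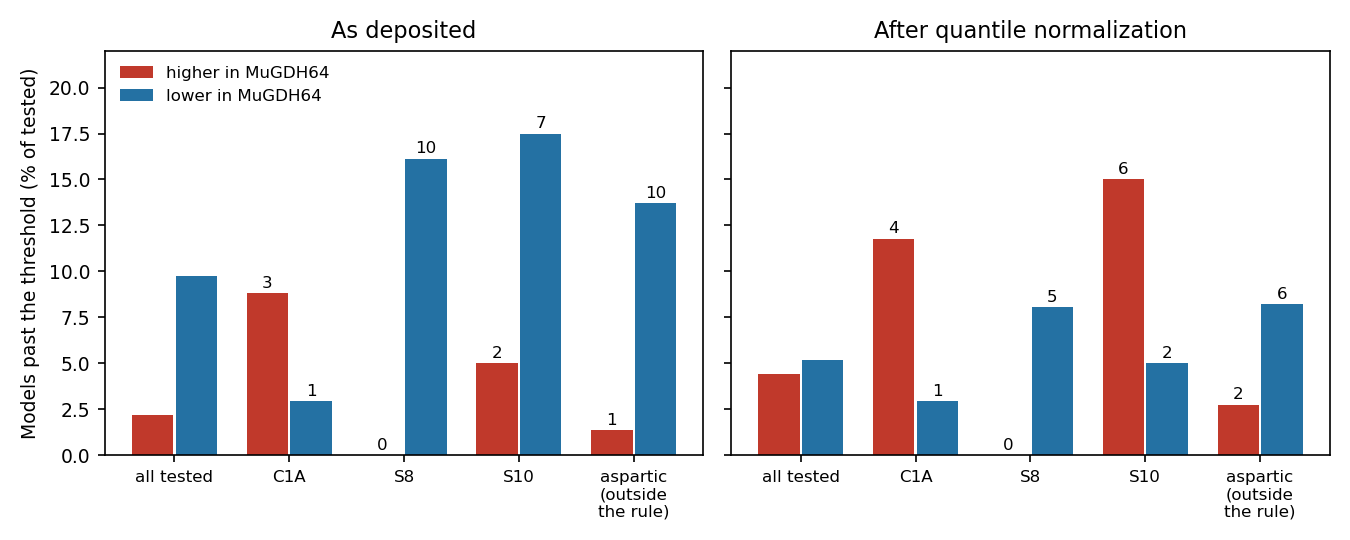
Share of tested models past the threshold (y axis, percent) among all 32340 tested models, the 3 protease families and the aspartic peptidases, as deposited (left) and after quantile normalization (right). Red bars are models higher and blue bars models lower in MuGDH64, with the number of models over each bar of a family; S8 has 0 higher models under both scalings, and S10 goes from 2 higher and 7 lower to 6 higher and 2 lower.

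The families stood at very different levels, on the FPKM scale. Papain-like models together held 2715, 2782 and 2660 FPKM in the GDH64 libraries and 2637, 2539 and 2211 FPKM in the MuGDH64 libraries. Subtilisin-like models held 767, 756.8 and 728.8 against 690.2, 673.4 and 575.4 FPKM. Carboxypeptidase-like models held 503.3, 536 and 475.1 against 475.1, 462.1 and 418.5 FPKM. The MuGDH64 sums of C1A and S8 lay below those of GDH64, and for S10 the highest MuGDH64 sum stood level with the lowest GDH64 sum. Scaled to 1000000 FPKM per library, the S8 sums still lay apart, at 1021, 1001 and 1000 against 959, 955 and 907. The scaled C1A sums overlapped, at 3612, 3678 and 3651 against 3663, 3600 and 3484, and so did the S10 sums, at 670, 709 and 652 against 660, 655 and 660. No test was run on sums.

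**Figure D2:**
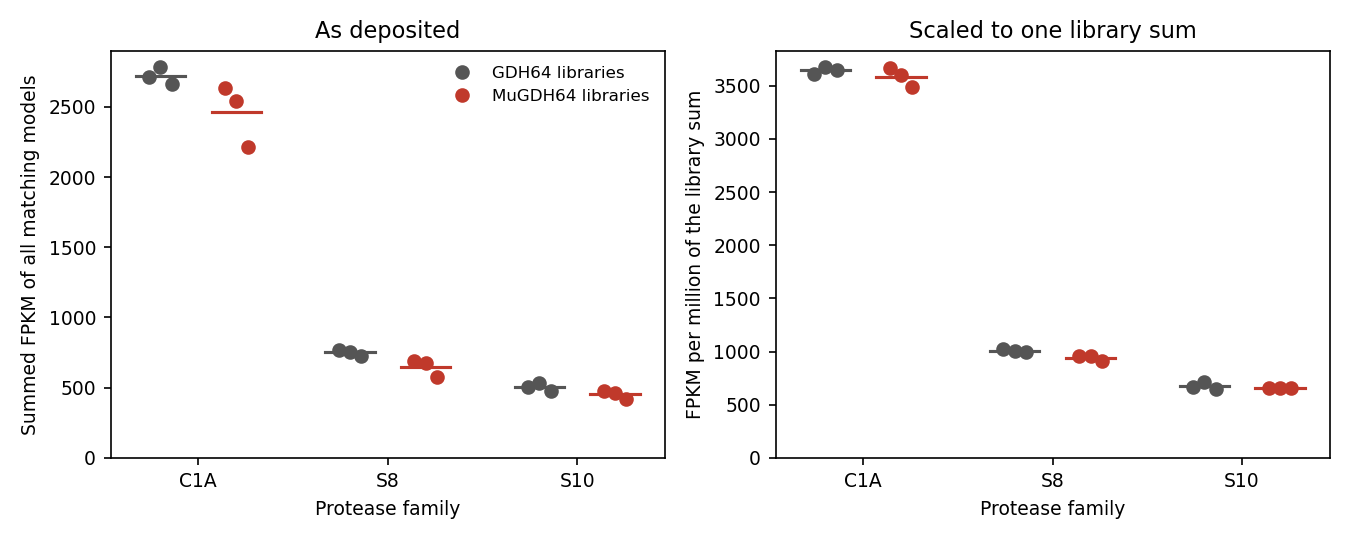
Summed FPKM of all C1A, S8 and S10 models (y axis), as deposited (left) and scaled to 1000000 per library (right), with 1 point per library and a line at the mean of 3. The C1A sums, from 2211 to 2782 FPKM, exceed those of the other families, and after scaling the lines lie apart in S8 alone.

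Papain-like proteases were concentrated in a few models: the top 9 held 89.7% of the family's FPKM, and 8 of the 34 tested models had a mean over 100 FPKM. The highest, Nitab4.5_0001840g0080, carries the I29 propeptide. It had 473.17, 522.13 and 461.65 FPKM in GDH64 against 398.26, 412.6 and 340.42 FPKM in MuGDH64. The libraries did not overlap, but the change missed the threshold (relative log2 -0.17, SE 0.10, adjusted p = 0.0589). The threshold was met in 3 of 15 other settings, among them the filter of 5 FPKM (0.0423) and library weights (0.0451), and its adjusted p reached 0.213 after median-centring. Nitab4.5_0014262g0010 had a mean of 465 ± 19.6 FPKM in GDH64 and 387 ± 43.4 FPKM in MuGDH64 (± is the SD over n = 3 libraries here and below; limma adjusted p = 0.109). Nitab4.5_0000343g0190 had 364 ± 27.2 and 338 ± 31.1 FPKM (limma adjusted p = 0.475).

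One of the abundant papains rose. Nitab4.5_0000681g0080, with the I29 propeptide and cysteine, histidine and asparagine active-site names, had 138.43, 129.24 and 139.8 FPKM in GDH64 against 279.32, 229.2 and 211.32 FPKM in MuGDH64. Every MuGDH64 library lay above every GDH64 library. The relative log2 change was 0.98 (SE 0.11, adjusted p = 0.00419), and it passed in each of 15 other settings (adjusted p from 0.00106 to 0.0192). A papain 5 models away on the same scaffold by its number, Nitab4.5_0000681g0130, had 117.22, 126.45 and 102.64 FPKM in GDH64 against 107.98, 97.34 and 89.76 FPKM in MuGDH64. There the lines overlapped (relative log2 -0.05, adjusted p = 0.193). The difference between these neighbours was not tested.

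The other papains that rose were of lower level, both with the I29 propeptide. Nitab4.5_0001608g0050 had 3.38, 4.35 and 6.06 FPKM in GDH64 against 9.07, 11.03 and 10.38 FPKM in MuGDH64. The lines did not overlap, and the change (relative log2 1.20, SE 0.18, adjusted p = 0.0101) passed in each of 15 other settings. Its neighbour Nitab4.5_0001608g0070, 2 models away, had 11.34, 13.14 and 11.26 against 15.63, 13.51 and 13.67 FPKM, without overlap; it missed the threshold as deposited (adjusted p = 0.180) and passed as higher after quantile normalization (adjusted p = 0.0269). Nitab4.5_0017649g0020 had 1.08, 0.57 and 0 FPKM in GDH64 against 4.63, 4.32 and 1.19 FPKM in MuGDH64. The lowest MuGDH64 library lay just above the highest GDH64 library. Only 1 GDH64 library reached 1 FPKM, so the model met the filter mainly through MuGDH64, the line where it is high. The counts of higher C1A models, and of those with I29, include it. Its change (relative log2 1.62, SE 0.39, adjusted p = 0.0449) passed in 7 of 14 other settings; it missed without GDH64 library 2 (0.101) or 3 (0.0931) and without MuGDH64 library 1 (0.107) or 2 (0.111).

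A single papain fell. Nitab4.5_0002056g0060 has a C1A propeptide name in place of I29, a name used for cathepsin B-type enzymes, the class known in plants for roles in cell death. It had 279.74, 302.79 and 274.86 FPKM in GDH64 against 219.98, 216.32 and 188.26 FPKM in MuGDH64, with no overlap (relative log2 -0.28, SE 0.09, adjusted p = 0.0176). It passed after quantile normalization too (adjusted p = 0.0105), but not without GDH64 library 1 (0.0568) or 2 (0.0567). In all, 3 of 34 C1A models rose and 1 fell (8.82% and 2.94%, against 2.20% and 9.74% of all tested models), and 4 and 1 after quantile normalization (4.43% and 5.17% of all models). Their median relative log2 change was 0.04, and 5 lay above and 11 below the GDH64 libraries without overlap. These are 14.7% and 32.4%, against 5.68% and 31.8% of all tested models. With I29, 3 of 25 models rose and 0 fell (limma, unadjusted p under 0.05: 3 higher and 3 lower); without it, 0 of 9 rose and 1 fell (unadjusted, 0 and 4).

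Papains with a granulin domain, the form of the senescence- and drought-linked RD21 enzyme of Arabidopsis, did not pass in either direction among 8 tested (limma, unadjusted p under 0.05: 0 higher and 1 lower; 0 of either after quantile normalization with adjustment). The most abundant, Nitab4.5_0006004g0020, had 266.98, 279.88 and 273.77 FPKM in GDH64 against 262.3, 267.49 and 226.51 FPKM in MuGDH64. The lines overlapped (relative log2 0.06, adjusted p = 0.387). Nitab4.5_0006486g0020 had means of 248 ± 3.18 and 237 ± 17.9 FPKM (limma adjusted p = 0.626). Nitab4.5_0002815g0150, the granulin model tested through MuGDH64 alone, stood at 0.62, 0.85 and 0.6 against 1.09, 1.06 and 1.26 FPKM and missed the threshold (adjusted p = 0.170).

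**Figure D3:**
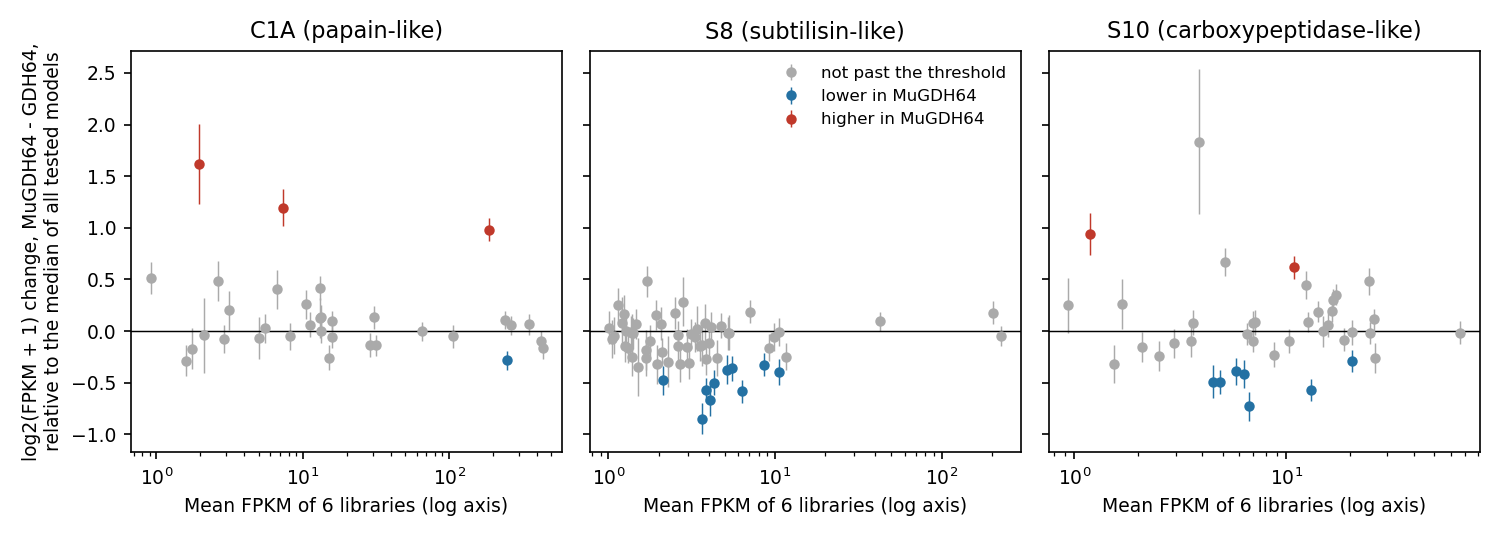
Change of each tested protease (y axis, log2(FPKM + 1), MuGDH64 minus GDH64, relative to the median of all tested models, bars 1 SE) against its mean FPKM in the 6 libraries (x axis, log scale), by family. Papains that rose lie at both ends of the level range, the S8 models that fell have means between 2.12 and 10.6 FPKM, and the grey S10 point at 1.84 with the long bar is Nitab4.5_0002150g0040.

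Subtilisin-like proteases had calls in 1 direction: 10 of 62 fell and 0 rose (limma, unadjusted p under 0.05: 21 lower and 0 higher), 16.1% against 9.74% of all tested models lower. After quantile normalization 5 fell and 0 rose, where 5.17% and 4.43% of all models were called. In 29 models (46.8%) MuGDH64 lay below GDH64 without overlap and in 1 above (1.61%). The shares of all tested models were 31.8% and 5.68%. After quantile normalization these numbers were 18 and 2, where the shares of all models were 16.5% and 15.4%. The median relative log2 change was -0.09, and -0.10 after quantile normalization.

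The S8 models that fell were of low level. Nitab4.5_0010920g0020, with the I9 propeptide, the catalytic domain and the protease-associated (PA) domain, had 5.47, 6 and 4.18 FPKM in GDH64 against 1.83, 2.06 and 2.23 FPKM in MuGDH64. The lines were well apart (relative log2 -0.85, SE 0.15, adjusted p = 0.00529). Nitab4.5_0000366g0170, with the same domains among others, stood at 5.02, 6.67 and 4.95 against 2.38, 3.17 and 2.36 FPKM (relative log2 -0.67, SE 0.16, adjusted p = 0.0122). Nitab4.5_0002890g0040, with I9 and no PA domain in its description, stood at 7.63, 9.01 and 7.99 against 4.44, 4.38 and 4.47 FPKM (relative log2 -0.58, SE 0.11, adjusted p = 0.00564). In both, every MuGDH64 library lay below every GDH64 library. Nitab4.5_0012494g0040, with I9 and PA, stood at 4.86, 5.23 and 5.06 against 2.66, 2.67 and 2.5 FPKM (relative log2 -0.57, SE 0.12, adjusted p = 0.00684). These 4 and Nitab4.5_0005167g0020 passed in every other setting in which they met the filter, quantile normalization included. The other 5 that fell, with relative changes from -0.48 to -0.33, missed the threshold after quantile normalization.

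By domain, 7 of 31 tested S8 models with the PA domain fell and 3 of 31 without it (22.6% and 9.68%, against 9.74% of all tested models). With the I9 propeptide 9 of 45 fell, and without it 1 of 17 (20% and 5.88%). After quantile normalization 4 with PA and 1 without it were lower, where 5.17% of all models were. By the I9 propeptide these numbers were 5 and 0. These differences were not tested.

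The bulk of S8 transcript lay in models that did not pass. The top 2 held 61.8% of the family's FPKM, while 47 of the 62 tested models had means under 5 FPKM. Nitab4.5_0000303g0140 had 257.52, 239.31 and 240.93 FPKM in GDH64 against 227.23, 218.63 and 187.15 FPKM in MuGDH64, without overlap (relative log2 -0.05, SE 0.10, adjusted p = 0.154). Nitab4.5_0002500g0020 stood at 212.69, 192.11 and 202.73 against 225.7, 211.82 and 173.43 FPKM, with overlap (relative log2 0.18, SE 0.11, adjusted p = 0.998). Both descriptions name the I9 propeptide and a subtilisin-related region but no S8/S53 catalytic domain. Nitab4.5_0005845g0040 had 43.8 ± 3.38 and 41.3 ± 0.565 FPKM (limma adjusted p = 0.571).

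Serine carboxypeptidase-like models were spread more evenly: the top 3 held 24.7% of the family's FPKM, and 0 of 40 tested had a mean over 100 FPKM. As deposited 2 rose and 7 fell (5% and 17.5%, against 2.20% and 9.74% of all tested models). After quantile normalization 6 rose and 2 fell, where 4.43% and 5.17% of all models were called, so the direction of the family's calls depended on the scaling. Only 4 models, 2 higher and 2 lower, were called both ways. The median relative log2 change was -0.01, with 4 models above and 16 below without overlap (10% and 40%, against 5.68% and 31.8% of all tested models).

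Both that fell under either scaling were of middle level. Nitab4.5_0009379g0010 had 7.93, 9.45 and 9.53 FPKM in GDH64 against 4.4, 5.04 and 3.59 FPKM in MuGDH64 (relative log2 -0.73, SE 0.14, adjusted p = 0.00647). Nitab4.5_0000173g0290 stood at 16.95, 17.56 and 15.2 against 9.6, 9.24 and 9.51 FPKM (relative log2 -0.57, SE 0.10, adjusted p = 0.00398). Neither overlapped between lines, and both passed in each of 15 other settings. Nitab4.5_0003841g0020, at 5.98, 6.1 and 6.61 against 3.63, 3.2 and 3.82 FPKM, fell as deposited (adjusted p = 0.0111) and just missed the threshold after quantile normalization (0.0542). Nitab4.5_0004222g0020, at 6.46, 6.2 and 4.59 against 3.19, 2.76 and 3.79 FPKM, fell as deposited (adjusted p = 0.0297) but passed in 5 of 14 other settings; it missed without library 1 or 2 of either line, and after quantile normalization (0.116).

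The S10 models that rose were less stable. Nitab4.5_0005092g0020 had 8.2, 9.77 and 9.11 FPKM in GDH64 against 13.67, 12.31 and 11.85 FPKM in MuGDH64, without overlap (relative log2 0.62, SE 0.11, adjusted p = 0.0386). It passed after quantile normalization (0.00697) but missed whenever any 1 of the 6 libraries was left out, with adjusted p up to 0.134. Nitab4.5_0000567g0070 stood at 0.68, 0.69 and 0.42 against 2.17, 2.08 and 1.03 FPKM. It met the filter through MuGDH64 alone, the line where it is high, so its call as higher adds no support. The counts of higher S10 models and of higher proteases, under either scaling and under both, include it. It missed the threshold without GDH64 library 1, 2 or 3. The top S10 models did not pass: Nitab4.5_0006744g0060 had 70.6 ± 6.10 and 61.8 ± 6.16 FPKM (limma adjusted p = 0.260).

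Some S10 models met the threshold after quantile normalization alone. Nitab4.5_0001316g0030 stood at 3.57, 3.96 and 4.71 against 6.11, 6.88 and 5.43 FPKM, without overlap, with an adjusted p of 0.0517 as deposited and 0.0175 after quantile normalization. Nitab4.5_0004334g0060, Nitab4.5_0000329g0240 and Nitab4.5_0002796g0040 were higher after it too (adjusted p 0.0300, 0.0342 and 0.0421). These 4 and Nitab4.5_0002150g0040 were singled out after their values had been seen. Nitab4.5_0002150g0040 had 6.92, 0 and 0 FPKM in GDH64 against 7.25, 3.59 and 5.59 FPKM in MuGDH64. The first GDH64 library matched the mutant line, and the model did not pass (relative log2 1.84, SE 0.70, adjusted p = 0.147). It passed without GDH64 library 1 (0.00116), but that run left out the only GDH64 value above 0. The model then met the filter through MuGDH64 alone, the line where it is high, so that pass adds no support. A listed 0 may be an estimate that failed.

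**Figure D4:**
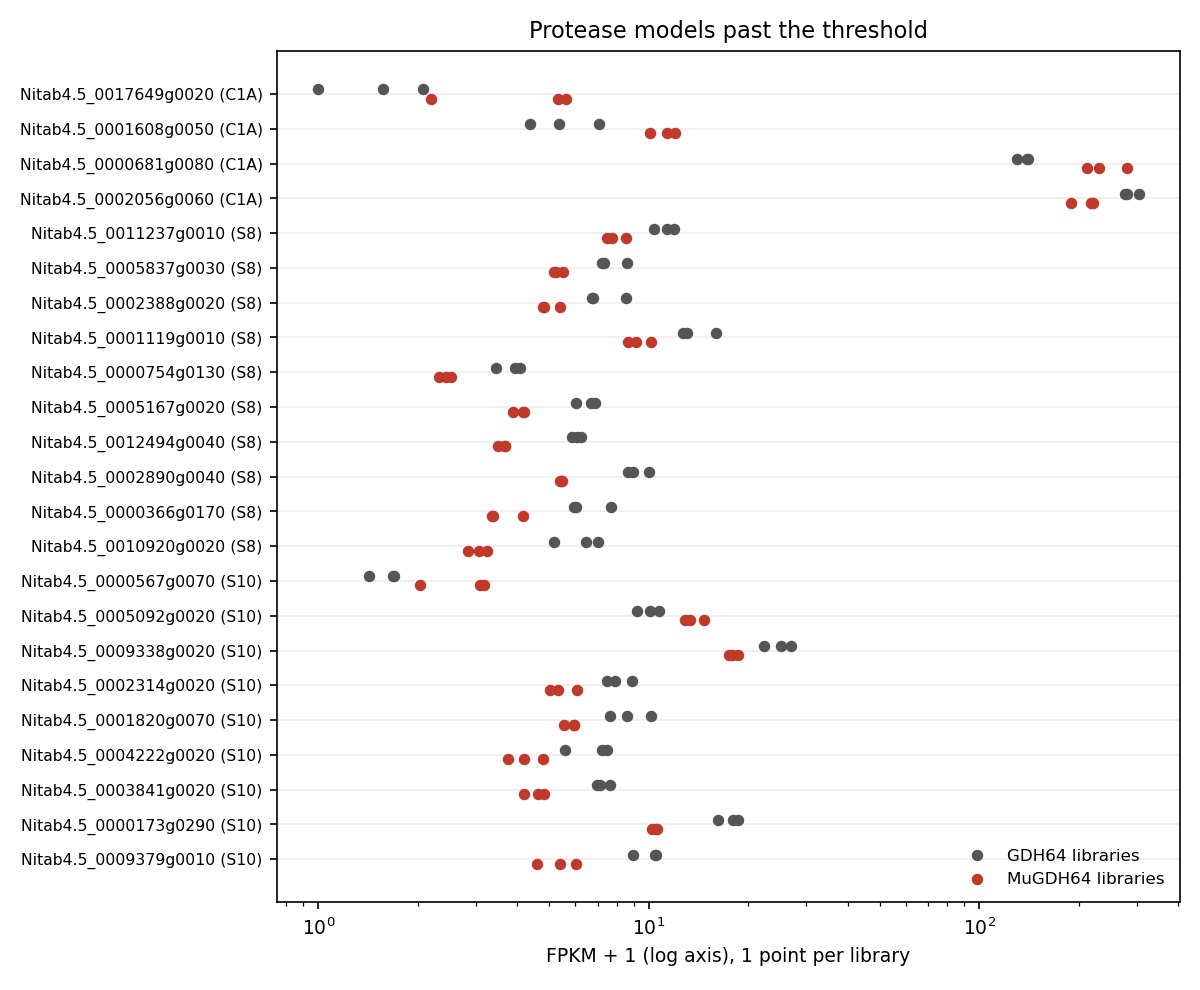
FPKM + 1 (x axis, log scale) of the 23 protease models past the threshold, by family, with 1 point per library. In every row the grey GDH64 and red MuGDH64 points do not overlap, and the narrowest gap is in Nitab4.5_0017649g0020, at 1.08 against 1.19 FPKM.

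Protease genes often lie in tandem copies, and the models' numbers gave 22 neighbouring pairs in C1A, 70 in S8 and 22 in S10, each within 10 models of one scaffold. Both partners were tested in 2, 8 and 5 of these pairs. In 2 pairs of each family 1 partner was called, and in 0 pairs both were. For example, Nitab4.5_0002314g0020 (S10) fell from 7.08 ± 0.731 to 4.47 ± 0.552 FPKM (limma adjusted p = 0.0272), beside Nitab4.5_0002314g0010 at 13.96 ± 0.112 and 14.1 ± 0.785 FPKM (adjusted p = 0.937). Nitab4.5_0009338g0020 (S10) fell from 23.8 ± 2.35 to 16.95 ± 0.560 FPKM (limma adjusted p = 0.0259), beside Nitab4.5_0009338g0030 at 30.5 ± 6.03 and 22.03 ± 1.86 FPKM (adjusted p = 0.0810). Tobacco is an allotetraploid, and how reads of near-identical copies were assigned is unknown, so values of such copies are uncertain. Differences between partners were not tested.

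Aspartic proteases, written as Aspartic peptidase in the table, numbered 182, of which 73 were tested. This list was added after the descriptions had been seen. As deposited 1 rose and 10 fell (1.37% and 13.7%, against 2.20% and 9.74% of all tested models). After quantile normalization 2 were higher and 6 lower, where 4.43% and 5.17% of all models were. Nitab4.5_0000312g0090 had 28.11, 32.49 and 28.4 FPKM in GDH64 against 10.9, 10.57 and 9.16 FPKM in MuGDH64, well apart (relative log2 -1.28, SE 0.11, adjusted p = 2.1e-04). Nitab4.5_0003573g0020, with the saposin-like insert found in vacuolar aspartic proteases of plants, stood at 3.21, 3.83 and 3 against 1.51, 1.61 and 1.17 FPKM (relative log2 -0.66, SE 0.15, adjusted p = 0.0105).

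The inhibitors of these proteases form short lists, with called shares from 0% to 36.4% beside the 11.9% of all tested models. Of 11 cystatins, which block papain-like enzymes, 0 passed (limma, unadjusted p under 0.05: 2 higher and 1 lower), and 3 were higher after quantile normalization. Of 11 Kunitz inhibitors 1 rose and 3 fell, 36.4% in all (1 and 2 after quantile normalization). Nitab4.5_0016396g0010 stood at 5.41, 5.54 and 3.97 against 0.82, 0.8 and 0.66 FPKM. It met the filter through GDH64 alone, the line where it is high, so its values are given without a test. The Kunitz counts under both scalings, and the share of 36.4%, include it. In contrast, Nitab4.5_0007090g0020, of the same domain names, stood at 3.46, 2.74 and 2.14 against 8.84, 8.82 and 6.15 FPKM (limma adjusted p = 0.00493). Potato inhibitor I, a wound-induced inhibitor of serine proteases, had 1 of 6 models lower (16.7%; 1 also after quantile normalization): Nitab4.5_0000525g0290, at 583.07, 610.11 and 589.22 against 352.3, 368.52 and 292.57 FPKM (relative log2 -0.64, SE 0.10, adjusted p = 0.00262), passed in each of 15 other settings. Potato inhibitor II had 1 of 5 lower (20%), Nitab4.5_0005255g0020, at 265.73, 373.31 and 220.29 against 185.86, 186.38 and 132.32 FPKM (adjusted p = 0.0447), which passed in 5 of 15 other settings; 0 were called after quantile normalization. Of 6 serpins 0 passed (unadjusted, 0 higher and 1 lower), and 0 rows named Bowman-Birk inhibitors.

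Among other proteases and protein breakdown genes, called shares ran from 0% to 22.2%, beside the 11.9% of all tested models. Legumains, the vacuolar processing enzymes that mature other vacuolar proteins, had 2 of 9 lower and 0 after quantile normalization, among them Nitab4.5_0001063g0040 at 7.61 ± 0.493 and 4.89 ± 0.425 FPKM (limma adjusted p = 0.0208). Of 10 metacaspases, which act in plant cell death, 0 passed (limma, unadjusted p under 0.05: 4 higher and 0 lower), and 2 were higher after quantile normalization. Trypsin-like S1 proteases had 0 of 17 called (unadjusted, 0 higher and 3 lower) and prolyl oligopeptidases 1 of 20 lower, with 1 higher and 0 lower after quantile normalization. Metallopeptidases had 1 of 154 higher and 3 lower, turning to 3 and 1 after quantile normalization; the M50 model Nitab4.5_0000387g0010 stood at 15.2, 18.44 and 17.18 against 3.05, 2.95 and 2.44 FPKM (relative log2 -2.06, SE 0.13, adjusted p = 3.7e-05). Proteasome genes had 1 of 154 higher and 3 lower (8 and 1 after quantile normalization). The one higher was the assembly factor UMP1, Nitab4.5_0002108g0070, at 25.74, 17.41 and 23.16 against 54.11, 57.63 and 51.16 FPKM (relative log2 1.45, SE 0.14, adjusted p = 0.00147). Ubiquitin-specific proteases had 1 of 63 lower (0 after quantile normalization) and Clp proteases 1 of 22 higher (1 after it). Autophagy genes had 3 of 41 lower (1 higher and 1 lower after it), among the 3 Nitab4.5_0001393g0160 of the Atg8 family at 28.88, 29.18 and 30.3 against 21.24, 23.8 and 21.16 FPKM (limma adjusted p = 0.0287).

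Domain families that hold cell type markers were read beside the proteases. Homeobox START proteins, a family that holds epidermis regulators but is not limited to them, had 1 of 21 higher and 7 lower. These are 4.76% and 33.3%, against 2.20% and 9.74% of all tested models (1 and 6 models after quantile normalization). All 36 rows, 3 of them at 0, summed to between 91.54 and 105.9 FPKM in GDH64 and between 61.78 and 73.43 FPKM in MuGDH64. Families of dividing cells (cyclins and kinesins) had 0 of 85 higher and 11 lower (0 and 5 after quantile normalization), with sums of all 217 rows, 16 at 0, from 379.6 to 462.2 and from 297.7 to 336.7 FPKM. Pollen-named families had 2 of 59 higher and 9 lower (4 and 7 after it). Their sums of all 179 rows, 78 at 0, ran from 1058 to 1105 and from 926.7 to 1008 FPKM. After quantile normalization 15 pollen models lay below and 10 above without overlap, where the shares of all models were 16.5% and 15.4%. Scaled to 1000000 FPKM per library, the START sums still lay apart, at 122, 140 and 127 against 96, 104 and 97. The other sums given here are as deposited and carry the shift of the libraries. The part of these cell types in the protease results was not tested. Mesophyll families had 2 of 71 higher and 14 lower, 22.5% in all beside 11.9% of all tested models (5 higher and 7 lower after quantile normalization), with 11 of 90 rows at 0. Senescence families (chlorophyll breakdown) had 1 of 16 higher and 1 lower (4 and 1 after quantile normalization). Their sums ran from 243.8 to 266.3 and from 242.2 to 296.6 FPKM, overlapping between the lines as deposited, with the shift of the libraries left in. After quantile normalization 7 of the 16 lay above and 1 below without overlap, where the shares of all models were 15.4% and 16.5%. Phloem families had 0 of 38 higher and 3 lower, turning to 3 and 2 after quantile normalization, and the 3 tested laccases of lignifying cells had 0 called (limma, unadjusted p under 0.05: 0).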

How the data were processed

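Total RNA of leaf was made into TruSeq libraries and read in pairs, per the labels' protocols. The submitters' processing notes name TopHat2 and Cufflinks, with no version or role; the sources used here give neither build nor annotation. The deposited values were taken as FPKM by inference: the header names no unit, the values have 2 decimals and sum to different totals per library. Steps between low values gave no whole reads, so the depth is unknown and no counting error is given. FPKM does not correct for a few transcripts taking a larger share of a library.

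The 6 libraries (3 GDH64, 3 MuGDH64) entered 1 two-sided limma fit (version 3.58.1, R 4.3.3) of log2(FPKM + 1), with a mean-variance trend and the line as the only term. It covered the 32340 models at 1 FPKM or more in 3 or more libraries, with p adjusted by Benjamini-Hochberg (threshold 0.05). The procedure was also run on simulated data without a shift of whole libraries, so that run does not bear on the shift seen here. Tables and plots used Python 3.11.15, pandas 2.3.3, numpy 2.4.6 and matplotlib 3.10.9. Members, lists and tests were chosen with earlier results of these data known. Named models are, per family, the 3 highest by mean, up to 4 rises and 4 falls past the threshold whose lines do not overlap, and those past it with 1 line under 1 FPKM; each other list gives up to 2 by adjusted p. Neighbours, granulin models and others outside this rule were named after their values were seen. Other settings were quantile normalization, median-centring, rescaling to a sum of 1000000, a pseudocount of 0.1, no filter, a filter of 5 FPKM, no trend, library weights, a block for the library number, and leaving out each library in turn. No sequences were used here.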

Additional observations from a re-analysis of the deposited data

How the results depend on the processing

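No called model changed sign under any alternative run. Of the named models that did not pass, the small changes of Nitab4.5_0000343g0190, Nitab4.5_0005845g0040 and Nitab4.5_0001450g0220 (-0.11, -0.08 and -0.06 on the unsubtracted log2 scale) turned positive after quantile normalization (0.06, 0.03 and 0.07), median-centring and rescaling, and that of Nitab4.5_0006744g0060 (-0.19) after median-centring (0.01). After quantile normalization all tested models gave 1433 higher and 1671 lower calls, the proteases 10 and 8, S8 5 (all lower) and S10 6 and 2; median-centring gave 1940 and 1384, 10 and 8, 5 (all lower) and 6 and 2. Rescaling to one sum gave 1285 higher calls in all models and 4 in S10, and log2 changes of the family sums of -0.026 for C1A, -0.100 for S8 and -0.039 for S10 (-0.15, -0.22 and -0.16 as deposited). Without the filter there were 2280 calls (1784 lower), 2 higher proteases, and 4 S10 calls (0 higher, 4 lower). Library weights gave 6284 calls (1266 higher, 5018 lower), 7 in C1A (4 lower) and 15 in S10 (4 higher, 11 lower). The filter of 5 FPKM gave 3 lower C1A models, and with the aspartic rows added, chosen after the descriptions were seen, 28 proteases were lower. The cause of these shifts was not tested.

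Deviations of same-numbered libraries correlated weakly, at 0.0148, 0.0131 and 0.0511. Those of differently numbered libraries correlated at between -0.0459 and 0.0281. With 3 libraries per line these values cannot show whether the numbers stand for a shared block. With the replicate block 22 proteases were called, 4 higher and 18 lower, with 2 lower in C1A and 1 higher in S10.

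With each library left out, all calls ranged from 1794 to 3141 (higher 348 to 650, lower 1345 to 2491) and proteases from 10 to 22 (2 to 4 higher, 8 to 19 lower). C1A ranged from 2 to 4 (2 to 3 higher, 0 to 1 lower), S8 from 5 to 10 (0 higher) and S10 from 3 to 9 (0 to 1 higher, 3 to 8 lower). Log2 changes of the sums ranged from -0.20 to -0.07 (C1A), -0.27 to -0.14 (S8) and -0.20 to -0.11 (S10). For the named models 471 results kept their side of the threshold, 108 lost it and 5 gained it. Low FPKM limits most S8 models, whose counting error is unknown.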
